A study of Solanum lycopersicum with 32 samples.

Results

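Acetylation of lysine 18 of histone H3 (H3K18ac) was compared between leaves of tomato (Solanum lycopersicum) after 6 h at 45 °C and leaves harvested at 0 h. The members were the H3K18ac peak lists of these times, 2 libraries each, which made 4 of the 32 samples of the series and 4 of its 30 peak lists. All plants were wild type of cv. M82, 4 weeks old, and were raised at 24 °C under 16 h of light. The 4th leaf was taken, each replicate was a pool of plants, and the measurement was chromatin immunoprecipitation followed by sequencing (ChIP-seq). Both H3K18ac libraries of leaves heated for 1 h, and the lists of H3K4me3, H3K9ac, H3K27ac and RNA polymerase II (RNAPII) at 0 and 6 h, served to place the peaks. No unheated leaf was harvested at 6 h and the only input library was of 0 h leaves. Heat, time of day and the background of heated chromatin therefore cannot be told apart. A leaf also holds many cell types, and fewer cells with a mark cannot be told apart from less of the mark in each cell.

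Histone acetylation removes the positive charge of a lysine and is a mark of open, transcribed chromatin. H3K18ac, H3K9ac and H3K27ac are placed by acetyltransferases and removed by deacetylases. They are found around the starts of active genes and at regulatory elements. H3K4me3 is confined more closely to the starts of active genes, so an acetylated stretch with H3K4me3 is usually close to a promoter and one without it may lie in a gene body or at a distal element. A peak list records where the mark passed a threshold, so a broad acetylated stretch can appear as 1 long peak or as a row of short ones.

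The depth of the libraries was recovered from the peak lists as whole DNA fragments. The background lay at 7.54 and 7.03 fragments over a base in the 0 h libraries (replicates 1 and 2, an order kept for every pair of values) and at 13.96 and 8.33 in the 6 h libraries. The peak caller had scaled replicate 1 of 6 h to 72.9% of its depth. As called, the background was then 45.4 and 38.4 fragments per kb at 0 h against 65.2 and 49.3 at 6 h. The smallest peak width, which the caller sets to the fragment length of a library, was 166 and 183 bp at 0 h against 156 and 169 bp at 6 h. Both libraries of a time agreed within the sampling noise of their fragments, with a mean chi-square of 0.602 per matched summit at 0 h and 0.577 at 6 h, against 1.78 to 1.89 between the times. Each time was therefore counted as 1 sample (n = 1 per time), its libraries are given side by side, and no SD is given. The paper describes both libraries of a time as independent biological replicates, which the peak lists alone cannot settle. Only summits within 30 bp of each other with at least 60 fragments together were compared, 17397 at 0 h and 32517 at 6 h. Without such a selection, sampling alone would give a mean chi-square near 1. The effect of the selection on the values, which lay below that, was not tested. An exact permutation test over the 4 libraries cannot give a two-sided p under 0.33, so no difference in H3K18ac below can pass a threshold of 0.05. All tests over libraries take them as separate and compare libraries, not plants.

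The first question was whether the H3K18ac lists differed in the number and size of their peaks. With q of at most 0.05, there were 104241 and 98232 peaks at 0 h against 112861 and 116125 at 6 h. Peaks were thus more numerous in both heated libraries, with a log2 difference of the means of 0.18. The median peak width was 797 and 847 bp at 0 h against 667 and 640 bp at 6 h. Peaks were narrower in both heated libraries, by -0.33 on the log2 scale. The covered length, which is the bp under peaks, was 137.3 and 136.7 Mb at 0 h against 128.6 and 125.0 Mb at 6 h, a log2 difference of -0.11. More peaks therefore covered less DNA. None of these 3 measures overlapped between the times (exact permutation p = 0.33 for each, two-sided, the smallest possible). With equal numbers of peaks, the 98232 of lowest p in each list, the widths were 864 and 847 bp against 804 and 790 bp, and the log2 difference was -0.10. With only the peaks of at least 3-fold enrichment in the authors' lists, the numbers overlapped, at 58935 and 56103 against 52583 and 57887. The widths were then 1444 and 1501 bp against 1391 and 1251 bp. Without the fold filter, and with replicate 2 left out, the log2 difference in number was 0.11.

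**Figure D1:**
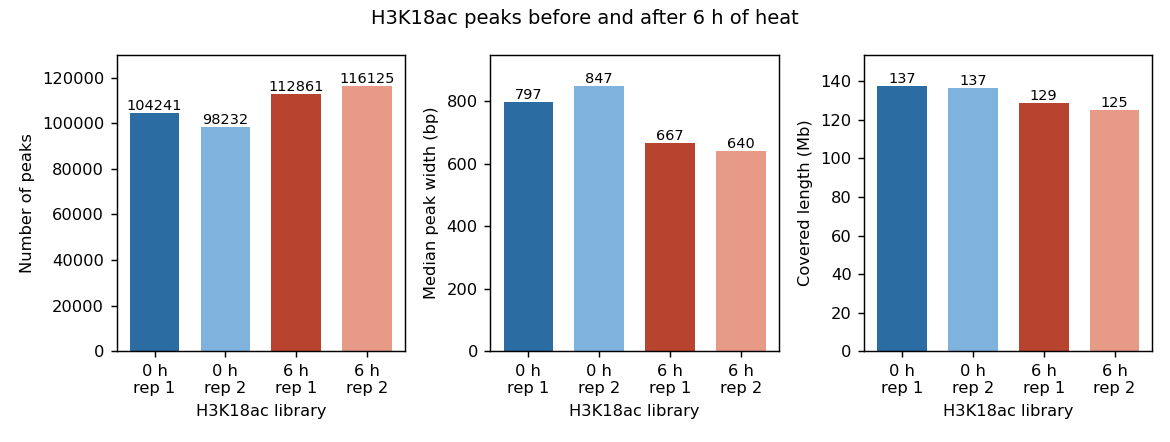
Number of H3K18ac peaks, median peak width in bp and covered length in Mb in each of the 4 libraries (bars, 1 library each, no error bars). Both 6 h libraries had more peaks, a lower median width and a shorter covered length than both 0 h libraries.

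As called, both 6 h libraries had a higher background per kb than both 0 h libraries, so depth and time cannot be told apart. At 6 h the deeper library, replicate 1, had fewer and wider peaks than replicate 2, and at 0 h the deeper library, also replicate 1, had more and narrower peaks. The part of depth and of fragment length in the difference between times was not tested. With only the peaks at least as wide as the largest of the 4 smallest widths, 183 bp, the numbers were 100282 and 98232 against 105882 and 111412.

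By width, the lists differed at both ends and not in the middle. Peaks under 300 bp numbered 19336 and 15625 at 0 h against 25700 and 25991 at 6 h. In the next class, 300 to under 600 bp, there were 22746 and 21688 against 26555 and 29288. Both short classes were fuller in both heated libraries. Peaks of 1000 to under 2000 bp were about as many at both times, with 22794 and 22132 against 22414 and 22756. Peaks of at least 4000 bp were fewer at 6 h, with 4774 and 4045 against 5888 and 6200 at 0 h. These widest peaks covered 33.8 and 36.3 Mb at 0 h against 26.4 and 21.9 Mb at 6 h, and were lower in both heated libraries. Across the lists the 75th percentile of width was 1706 and 1795 bp at 0 h against 1440 and 1348 bp at 6 h, and the 25th was 368 and 400 bp against 320 and 322 bp.

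**Figure D2:**
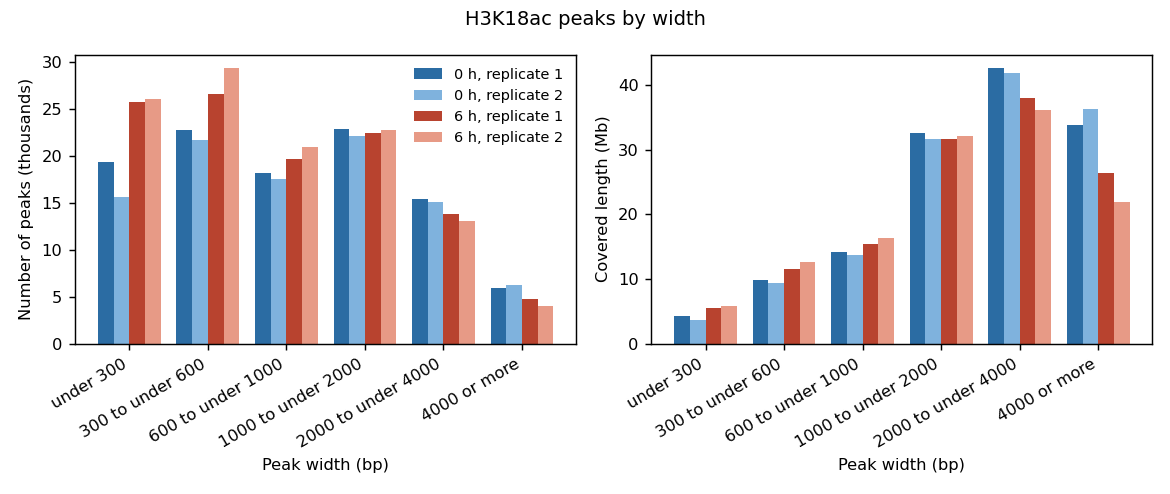
Number of H3K18ac peaks in units of 1000 (left) and covered length in Mb (right) by peak width in bp, with 1 bar per library. The 6 h libraries stood above the 0 h libraries in the classes under 1000 bp and below them from 2000 bp on.

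To see where the additional peaks lay, each pair of lists was merged into regions. Between replicate 1 of 0 h and of 6 h, 8620 more peaks were the sum of 9909 in regions of the 6 h list alone, -15775 in regions of the 0 h list alone, 23977 added in shared regions and -9491 removed there. Between the replicates 2, the 17893 more peaks were made up of 11074, -14709, 29101 and -7573 in the same order. Peaks in regions found at 1 time alone were thus fewer at 6 h than at 0 h, and the surplus came from shared regions that held more peaks. Between both libraries of 6 h, the shared regions gave 14273 and -8120. Of the 91532 regions of all 4 lists, 60708 had a peak in every library. These held 1.43 and 1.38 peaks on average at 0 h against 1.66 and 1.73 at 6 h (difference 0.286, exact permutation p = 0.33, two-sided). With at least 3-fold enrichment that difference was 0.138.

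Splitting was then measured peak by peak. A parent was a peak with a single counterpart in the other library of its time, and it counted as split where it held 2 or more peaks in each of both libraries of the other time. Of 53608 parents at 0 h, 5267 were split at 6 h, which is 9.83%. In the reverse direction, 1802 of 66631 parents at 6 h held 2 or more 0 h peaks in both libraries, which is 2.7%. Counted in single libraries, 14.3% and 16.2% of the 0 h parents were split at 6 h, and 6.26% and 5.93% of the 6 h parents at 0 h. The mean difference between the directions was 9.17 points (exact permutation p = 0.33, two-sided), and 5.25 points with at least 3-fold enrichment. With all peaks of a list taken as parents, 18.7% to 22.3% of the 0 h peaks held 2 or more 6 h peaks, and 8.53% to 9.5% of the 6 h peaks held 2 or more 0 h peaks. Between libraries of 1 time this share was 12.8% and 15.9% at 0 h against 13.8% and 9.59% at 6 h, so that all 4 lay between the shares of both directions. Most other 0 h parents, 33886 of them, met a single 6 h peak in both libraries, and 5045 met none.

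The share of split parents followed their width. It was 3.56% among 0 h parents of 600 to under 1000 bp, 13.6% at 1000 to under 2000 bp, 30.8% at 2000 to under 4000 bp and 51.0% at 4000 bp or more, where 1122 of 2201 were split. At 6 h the same classes held 2 or more 0 h peaks in 0.913%, 3.55%, 11.5% and 25.9% of parents. The share split was higher from 0 h to 6 h in each of these classes. Split 0 h parents had a median width of 2390 bp against 748 bp for all. The share by strength differed between the directions. Among 0 h parents of 2000 to under 4000 bp it was 30.02%, 32.6% and 29.8% in the upper 3 of the 4 equal groups by fold enrichment at 0 h, from weaker to stronger, and the weakest group had only 14 parents of that width. At 1000 to under 2000 bp these 3 groups had 15.4%, 15.05% and 10.7%. Among 6 h parents of 2000 to under 4000 bp the share holding 2 or more 0 h peaks was 32.1%, 18.02% and 8.22%, lower in stronger peaks.

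Peaks were mostly divided by narrow gaps into a few pieces. Of the split 0 h parents, 67.0% and 62.7% held 2 pieces in the 6 h libraries, 22.8% and 23.5% held 3, and 3.13% and 4.92% held 5 or more. In 4842 of the split parents both 6 h libraries shared a gap, 6632 gaps in all. The median gap was 124 bp, with quartiles of 91 and 177 bp, and 64.3% were shorter than 150 bp, about the length of DNA on a nucleosome. Gaps of 500 bp or more made up 2.52%. The gaps took 7.45% of the length of their parents, and 42.4% of them were centred in the middle one of 3 equal parts of the parent. A summit of the 0 h peak lay in 0.241% and 0.558% of the gaps. The caller had joined peaks closer than 77 bp, the smallest distance in these lists, so narrower dips are not seen here. With peaks under 500 bp apart joined, 44700 and 44700 stretches at 0 h stood against 51126 and 52951 at 6 h, and the difference between the directions of splitting was 8.80 points.

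Width also differed where a peak stayed whole. Among 0 h and 6 h peaks matched one to one, 44943 to 49315 for the 4 pairs of libraries, the median log2 width ratio was -0.044 to -0.065 and 58.1% to 60.1% were narrower at 6 h. The corresponding ratio was 0.00067 between the 0 h libraries and -0.016 between the 6 h libraries. Each edge lay 12 to 17 bp further in, at the median. The ratio was -0.10 to -0.15 for peaks of 600 to under 1000 bp at 0 h and between -0.0045 and -0.0087 for those of 4000 bp or more. Between libraries of 1 time the former ratio was -0.024 and -0.048. Peaks under 300 bp in the first list of a pair were wider in the second in every pair, also between both 0 h libraries, at 0.30, and both 6 h libraries, at 0.15. In bp, 21.6 to 25.1 Mb of the 0 h peaks were uncovered at 6 h. Edges of peaks made up 49.2% to 50.8% of this length, gaps inside peaks 25.4% to 28.7%, and whole peaks 21.5% to 24.2%. The length newly covered at 6 h was 12.8 to 13.6 Mb, of which gaps inside 6 h peaks that were bare at 0 h made up 2.44 to 2.70 Mb. Between libraries of 1 time the length in one list alone was 11.8 and 11.2 Mb for the 0 h lists and 12.9 and 9.31 Mb for the 6 h lists. Gaps inside peaks made up 1.66 to 2.75 Mb of these lengths. For replicate 1 of 6 h, the length newly covered, 12.96 and 13.6 Mb, was thus close to the 12.9 Mb it had over replicate 2. For replicate 2 of 6 h it was 12.8 and 13.3 Mb, above the 9.31 Mb over replicate 1. The length uncovered was above what either 0 h library had over its own replicate.

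The next question was where in the chromatin landscape the lists differed. A peak counted as marked where it overlapped a peak in both libraries of the other target at the same time. Peaks with H3K4me3 were about equally many, with 35760 and 34790 at 0 h against 34376 and 35110 at 6 h. Their median widths also overlapped, with 1094 and 1129 bp against 1136 and 1075 bp. Peaks without H3K4me3 numbered 68481 and 63442 at 0 h against 78485 and 81015 at 6 h. Their median width was 642 and 699 bp at 0 h against 511 and 500 bp at 6 h. More and shorter peaks were thus seen outside H3K4me3. The log2 difference in width was -0.41 without and -0.0085 with H3K4me3, and that in number 0.27 and -0.022. The difference between both classes was -0.40 for width and 0.30 for number (exact permutation p = 0.33 for each, two-sided, the smallest possible). These classes were compared after their values had been seen. Classed by H3K4me3 of 0 h at both times, the width differences were -0.41 and -0.031. In both classings a piece of a marked peak that lay off H3K4me3 counted as a peak without it. The part of such pieces in the contrast was not tested. Of the 0 h parents, 9.07% of 19353 with H3K4me3 and 10.2% of 34255 without it were split at 6 h. At 2000 to under 4000 bp these shares were 23.5% and 36.3%. The H3K4me3-marked share of peaks was 34.3% and 35.4% at 0 h against 30.5% and 30.2% at 6 h (difference -4.51 points, exact permutation p = 0.33, two-sided). With equal numbers of peaks the difference was -2.07 points, and with at least 3-fold enrichment these shares overlapped, at 42.9% and 44.2% against 44.4% and 42.5%. In covered length, peaks with H3K4me3 held 63.6 and 64.3 Mb at 0 h against 61.1 and 58.4 Mb at 6 h, and peaks without it 73.7 and 72.4 Mb against 67.5 and 66.6 Mb, so that length was lower in both classes.

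H3K27ac divided the H3K4me3-free peaks further. Peaks with H3K27ac and no H3K4me3 numbered 27179 and 26316 at 0 h against 36168 and 37761 at 6 h, with median widths of 1419 and 1452 bp against 1044 and 979 bp. Their covered length overlapped, at 47.5 and 47.4 Mb against 48.4 and 47.5 Mb. These peaks were therefore more numerous and shorter over about the same total length. Peaks with neither mark numbered 41302 and 37126 against 42317 and 43254, and their covered length was 26.2 and 24.99 Mb at 0 h against 19.0 and 19.1 Mb at 6 h. Their median width was 416 and 445 bp at 0 h against 327 and 329 bp at 6 h. H3K27ac itself covered more at 6 h than at 0 h, which moves peaks between these classes. Classed by the marks of 0 h at both times, peaks with H3K27ac and no H3K4me3 numbered 29391 and 30852 at 6 h, had median widths of 1211 and 1127 bp and covered 43.2 and 42.5 Mb. By that fixed classing the surplus in number was thus smaller, and the covered length was lower at 6 h. Peaks with neither mark numbered 48365 and 49540 at 6 h by the same classing and covered 23.7 Mb in each library. Their surplus in number was thus larger and their deficit in length smaller than with the marks of each time.

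**Figure D3:**
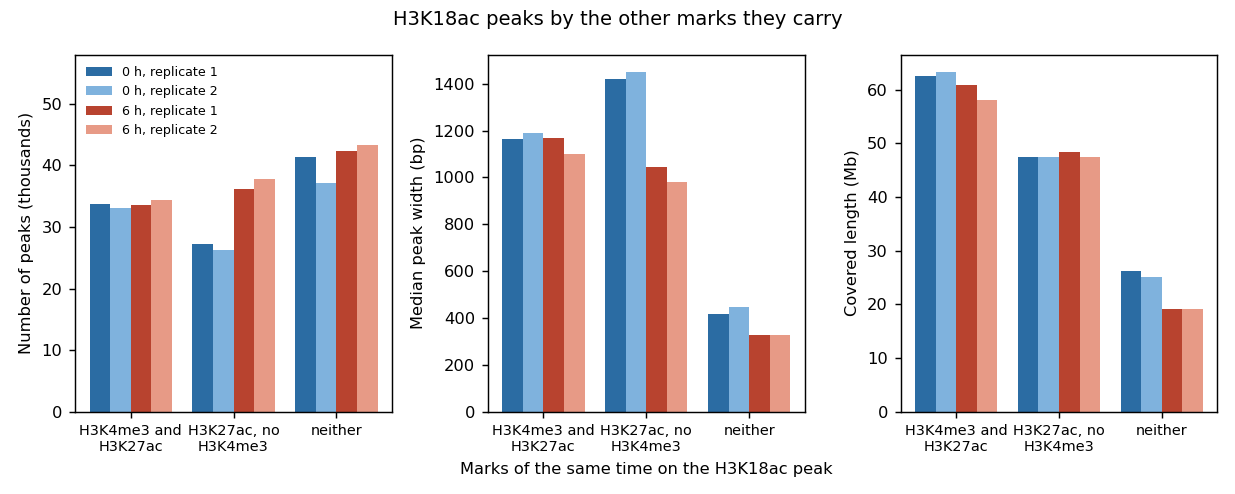
Number in units of 1000, median width in bp and covered length in Mb of H3K18ac peaks by the marks they carried at the same time, with 1 bar per library. Peaks with H3K4me3 and no H3K27ac, 0.69% to 1.96% of a list, are left out. Peaks with both marks overlapped in number and width between the times, and those with H3K27ac and no H3K4me3 were more numerous and narrower at 6 h.

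Splitting had the same contrast, within peaks of equal width. For parents, a mark was counted where the parent overlapped bp covered in both libraries of that mark. Among 0 h parents of 2000 to under 4000 bp, 23.2% of 2953 with H3K4me3 and H3K27ac were split at 6 h. The share was 31.2% of 3293 with H3K27ac and no H3K4me3, and 63.0% of 627 with neither. At 1000 to under 2000 bp these shares were 7.87%, 10.8% and 28.1%. At 4000 bp or more, 57 of 61 parents with neither mark were split. Broad H3K18ac stretches that lacked both other marks were thus split most often. At 2000 to under 4000 bp, 35.3% of the parents with H3K9ac at 0 h were split, against 21.0% of those without it. With and without RNAPII the shares were 31.4% and 29.2%. At 600 to under 1000 bp both contrasts had the other sign, with 3.20% against 4.24% for H3K9ac and 3.16% against 4.32% for RNAPII. At 1000 to under 2000 bp the shares were 15.3% and 11.1% for H3K9ac, and 12.8% and 15.0% for RNAPII. At 4000 bp or more they were 52.3% and 44.5%, and 51.6% and 48%. In the reverse direction the contrast by H3K4me3 turned around. At 2000 to under 4000 bp, 17.2% of the 6 h parents with H3K4me3 and H3K27ac held 2 or more 0 h peaks, and 4.92% of those with H3K27ac and no H3K4me3. Of the 1802 stretches of this reverse kind, which were several peaks at 0 h and 1 peak at 6 h, 76.0% had H3K4me3, against 31.9% of all 6 h parents. Of the split 0 h parents, 33.3% had it, against 36.1% of all 0 h parents. Unlike the shares by class, these comparisons with all parents are not matched for width. Split parents had median widths of 2739 bp at 6 h and 2390 bp at 0 h, against 595 and 748 bp for all. All shares given here are descriptions without a test, since parents of 1 library pair are not replicates.

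**Figure D4:**
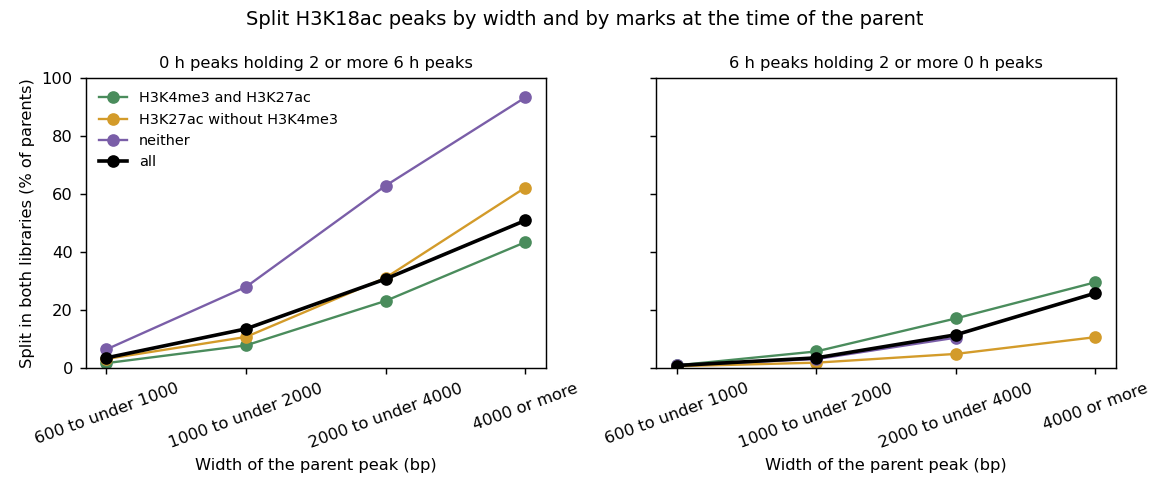
Percent of parents split in both libraries of the other time, by width of the parent in bp and by its marks at its own time, for 0 h parents (left) and 6 h parents (right). Points under 20 parents are left out. On the left, parents with neither mark lay highest in every class. On the right, from 1000 bp on, those with H3K4me3 and H3K27ac lay above those with H3K27ac and no H3K4me3.

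Inside the split parents the gaps lay mostly outside H3K27ac. Peaks of both H3K27ac libraries covered 3.92% of the gap length at 0 h against 33.4% of the rest of the parents, and 9.40% against 45.4% at 6 h. Gap length was thus poor in H3K27ac before heat, when H3K18ac still spanned it. H3K9ac did not have this contrast at 0 h, with 45.8% of gap length covered and 45.1% of the rest. At 6 h it had 18.5% and 27.6%, so that H3K9ac cover was lower in both and more so in the gaps. H3K4me3 covered 7.03% of the gaps and 14.9% of the rest at 0 h. RNAPII covered 27.9% and 31.5%. In the leaves heated for 1 h, H3K18ac itself covered 78.97% and 76.5% of the length of the later gaps, against 92.4% and 91.4% of the rest. Split parents were already split in both 1 h libraries in 23.5% of cases, against 5.81% of all 0 h parents, which were narrower. At equal width the contrast was smaller in points. Among parents of 2000 to under 4000 bp, 26.6% of those split at 6 h and 17.9% of the others were split in both 1 h libraries. Among those of 4000 bp or more the shares were 37.0% and 28.4%. They were 14.8% and 5.81% at 1000 to under 2000 bp, and 5.75% and 1.00% at 600 to under 1000 bp. As a ratio, the contrast was not smaller at 600 to under 1000 bp. In the reverse direction, the gaps that were filled at 6 h had H3K4me3 over 50.5% of their length at 0 h, against 43.2% of the rest. H3K27ac covered 51.2% of these gaps and 72.9% of the rest at 0 h, and 66.0% and 78.9% at 6 h. Gaps were thus poorer in H3K27ac than the rest of their parents in both directions.

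Along the chromosomes the differences were general. On each of the 12 chromosomes both 6 h libraries had more peaks, a lower median width and a shorter covered length than both 0 h libraries. The log2 differences were 0.14 to 0.20 for number, -0.37 to -0.28 for width and -0.14 to -0.087 for length. The share of 0 h parents that were split was 8.18% on chromosome 10 and 10.6% on chromosome 4, the lowest and the highest. To compare gene-rich and gene-poor surroundings without an annotation, 807 bins of 1 Mb were ranked by their H3K4me3 length at 0 h, and the lowest 403 were called H3K4me3-poor. These bins held 12.4 and 12.3 Mb of H3K18ac at 0 h against 12.6 and 12.3 Mb at 6 h, which overlap. The other bins held 124.9 and 124.4 Mb at 0 h against 116.0 and 112.7 Mb at 6 h. The poor bins therefore held 8.995% and 9.03% of the covered length at 0 h against 9.81% and 9.84% at 6 h (difference 0.815 points, exact permutation p = 0.33, two-sided). Peaks were nonetheless more numerous there at 6 h, with 12143 and 12638 against 11328 and 10656, and narrower. Parents of 2000 to under 4000 bp were split in 22.0% of cases in poor bins and in 31.9% elsewhere. By distance from the chromosome end, the stretch more than 20 Mb inside held 11.7% and 11.8% of the length at 0 h and 12.5% in both libraries at 6 h.

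Regions found at 1 time alone were a smaller part of the difference. A region was gained where both 6 h libraries and neither 0 h library had a peak. Of the 91532 regions, 2683 were gained, which is 2.93%, and 5221 were lost by the reverse rule, which is 5.7%. Gained regions had a median width of 374 bp and lost ones of 419 bp, against 1710 bp for the regions present in all 4 libraries. H3K4me3 at 6 h overlapped 31.9% of the gained regions, and as many of all 6 h parents, 31.9%, which had a median width of 595 bp. At 0 h H3K4me3 overlapped 4.46% of the lost regions and 44.7% of those present in all 4 libraries. H3K27ac at 0 h overlapped 5.38% of the lost regions against 74.2%, while H3K9ac overlapped 46.8% against 63.1% and RNAPII 50.4% against 67.0%. Lost regions were thus mostly short H3K18ac stretches without H3K4me3 or H3K27ac. The regions compared were not matched for width, and the part of width in these contrasts was not tested. In both 1 h libraries, 75.1% of the lost regions still had a peak, against 89.9% of the regions present in all 4 libraries. A peak was missing from both 1 h libraries in 17.4% of the lost regions, against 6.70%. Of the gained regions, 34.9% had a peak in both 1 h libraries and 55.5% in neither. The H3K4me3-poor bins held 17.9% of the gained and 5.96% of the lost regions, against 11.9% of those in all 4 libraries. With equal numbers of peaks the gained regions numbered 1120 and the lost regions 6880.

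The 5 parents with the most pieces were chosen by the lower count of both 6 h libraries. Coordinates are of the M82 version 1.0 assembly and count from 1, and the genes there were not assigned. The first, chr3:63125056-63133859, was 8804 bp long and was 1 peak in each library of 0 h and of 1 h. At 6 h it was 9 and 8 peaks, which covered 83.9% and 81.8% of it. No H3K4me3 peak was found in it in both libraries at 0 or 6 h, while H3K27ac had at least 3 peaks in each library at 0 h and 7 at 6 h. The region chr11:2483464-2492209 held 8 peaks in each 6 h library and 3 and 1 at 1 h. The region chr7:4025945-4040317, of 14373 bp, held 7 and 9 peaks at 6 h, and was already divided at 1 h, with 10 and 8. The region chr9:67197654-67207727 held 9 and 7 peaks at 6 h and 3 in each library at 1 h. The last, chr12:65620249-65628971, held 8 and 7 peaks, which covered 77.5% and 62.5% of it. The pieces of both 6 h libraries lay in similar places, and most of each parent stayed covered. The widest parent at 0 h, chr3:56009891-56033844, spanned 23954 bp and was nearly whole at 6 h, when 3 peaks in each library covered 99.2% of it.

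**Figure D5:**
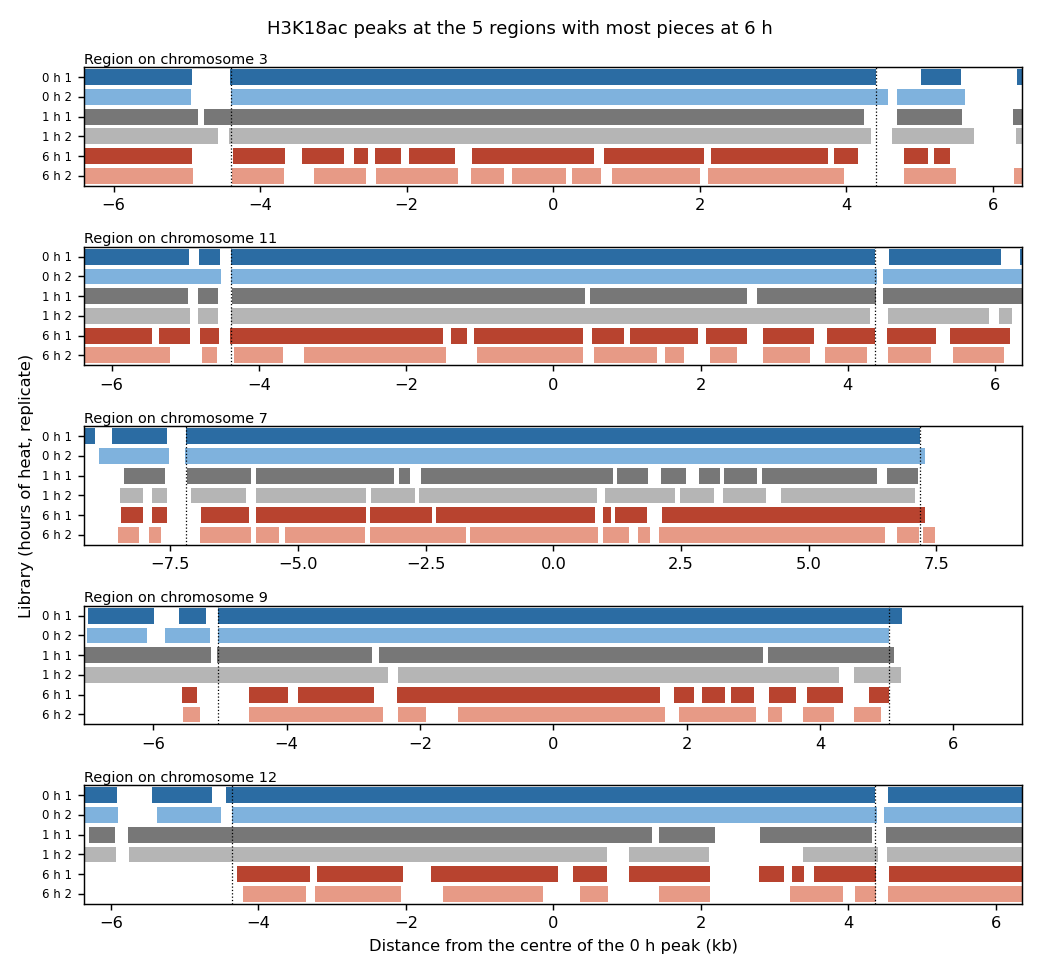
H3K18ac peaks (boxes) of 6 libraries over the 5 regions with the most pieces at 6 h, against the distance from the centre of the 0 h parent in kb, with 2 kb on either side. Dotted lines mark the ends of the parent. Each parent is 1 box in the 0 h libraries and 7 to 9 boxes in the 6 h libraries, and the regions on chromosomes 7, 9 and 12 were divided in both 1 h libraries as well.

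The regions that were joined, chosen in the same way, were 5 stretches of 1 peak at 6 h. In chr2:46007632-46015569 the 0 h libraries had 8 and 9 peaks, which covered 80.0% and 77.0% of its 7938 bp. The 1 h libraries had 4 and 5 peaks there, between the values of 0 and 6 h. In chr6:34424067-34430724 and in chr10:64380419-64387071 the 0 h libraries had 7 and 6 peaks each. The other two, chr7:54125050-54132959 and chr9:50736706-50743854, had 5 peaks in each 0 h library. H3K4me3 had at least 2 peaks in each of these 5 regions in both libraries at 0 h, while 1 of the 5 most divided regions had as many.

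The gained region of highest enrichment was chr2:32051270-32052290, with an authors' fold of 4.83 and 4.52 in the 6 h libraries. The 1 h lists also had a peak there in each library. The others were on chromosomes 4, 7, 2 and 9 and had folds of 3.4 to 3.88 in the library with the lower value. The lost region of highest enrichment was chr6:51758903-51760528, with a fold of 7.48 and 8.08 at 0 h. It and the other 4 lost regions named by this rule, on chromosomes 2, 8 and 10, still had a peak in both 1 h libraries. A pair of these lay side by side at chr10:227808-229119 and chr10:229281-229689.

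Finally, the same measures were taken for the other acetylations at 0 and 6 h. H3K9ac had 71305 and 65383 peaks at 0 h against 63351 and 63659 at 6 h, with median widths of 662 and 692 bp against 561 and 603 bp. H3K9ac peaks were thus narrower too, but fewer. H3K27ac had median widths of 480 and 493 bp at 0 h against 502 and 521 bp at 6 h, and covered 79.4 and 75.9 Mb against 94.8 and 86.3 Mb. Its peak numbers overlapped between the times. The difference between the directions of splitting was 6.87 points for H3K9ac and -5.75 points for H3K27ac, against 9.17 points for H3K18ac. The difference between H3K18ac and H3K9ac in log2 number was 0.28, and those between H3K18ac and H3K27ac were -0.40 in log2 width, -0.33 in log2 covered length and 14.9 points in splitting. Each of these 4 had an exact permutation p of 0.056, two-sided, the smallest that 36 arrangements allow (adjusted p = 0.111 over 8 comparisons). This test takes the 2 libraries of a time as separate, although for H3K18ac they were counted above as 1 sample. The other 4, among them width and splitting against H3K9ac, had exact permutation p-values of 0.33 to 0.778, and the interval of those differences cannot be estimated with 2 libraries per time. Within the split H3K18ac parents, H3K9ac had a peak in 83.1% and 78.7% at 0 h against 69.7% and 71.7% at 6 h, and H3K27ac in 81.6% and 78.7% against 91.3% and 85.6%. Parents that stayed single differed in the same directions, with 62.1% and 59.4% against 55.2% and 56.0% for H3K9ac, and 77.4% and 75.3% against 82.4% and 78.7% for H3K27ac. The smallest widths of H3K9ac were 172 and 184 bp at 0 h against 162 and 170 bp at 6 h, which lay apart. Those of H3K27ac, 146 and 159 bp against 143 and 160 bp, overlapped between the times. Those of H3K18ac, 166 and 183 bp against 156 and 169 bp, overlapped too. The part of fragment length in the differences was not tested.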

How the data were processed

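Reads of 75 bp were trimmed by the authors with Trimmomatic 0.38 and mapped to M82 version 1.0 with Bowtie2 2.3.5, and peaks were called for each library against the 0 h input with MACS2 2.2.7.1. The deposited narrow peak lists give a fold enrichment (ratio of summit pileup to local background) and p- and q-values as −log10, besides the summit offset. The methods name broad peaks at q 0.05, while the deposited lists are narrow and reach p 0.05. Peaks with q of at most 0.05 on 12 chromosomes were kept here, 96.2% to 97.4% of an H3K18ac list.

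Fragments at summits were recovered from both columns where −log10 p was under 60, within 0.01 of a whole number in all of them. Summits within 30 bp that held at least 60 fragments together were compared by chi-square in 20 levels. Overlap was at least 1 bp. Tests were exact permutations over libraries of log2 values or percents. Regions were named by piece number, or for gained and lost ones by the lower of both folds. The members, measures and regions were chosen with earlier results of these data known, and the filters on −log10 p and fold after seeing them. Recovery of splits and fragments was tested on simulated data. Scripts ran in Python 3.11.15 (scipy 1.17.1, numpy 2.4.6, matplotlib 3.10.9 and pandas 2.3.3). H3K27me1, the input and the 1 h lists of the other targets were not used here. No genome or annotation of this assembly was used, so no genes or sequences are given.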

Additional observations from a re-analysis of the deposited data

Results flagged for a closer look

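Measures were singled out where the libraries of H3K18ac and of another acetylation lay apart in opposite directions. Peak number had a log2 difference of 0.18 from 0 to 6 h for H3K18ac and of -0.10 for H3K9ac. Median peak width had one of -0.33 for H3K18ac and of 0.072 for H3K27ac. Covered length had one of -0.11 for H3K18ac and of 0.22 for H3K27ac. Each difference between targets had an exact permutation p of 0.056, two-sided, the smallest possible. The test takes the libraries of a time as separate.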

How the results depend on the processing

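Peak number, width, covered length, splitting, peaks per region and both location shares kept their direction in the alternatives run, with one exception. Peak number with at least 3-fold enrichment, chosen after seeing the data, had a log2 difference of -0.060 with overlapping libraries. The smallest difference in the H3K4me3-marked share was -0.054 points, under that same filter (exact permutation p = 1), and the share of length in H3K4me3-poor bins differed by 0.763 to 1.35 points. Leaving out a replicate gave log2 differences of 0.11 to 0.24 for number, -0.40 to -0.26 for width and -0.13 to -0.094 for covered length. It gave 9.21 to 13.8 points for splitting, where all peaks of a list serve as parents and the value with both replicates is 11.5 points. It gave 9909 to 11074 gained regions and 14709 to 15775 lost regions, as presence then rests on 1 library a time. Gained regions numbered 1120 and lost regions 6880 with equal numbers of peaks, where peak number is equal by construction. With 2 pairs the replicate numbers do not show a pairing. A replicate block leaves the differences as they are by construction, so it is no check on them. Splitting, measured there with all peaks as parents, was 11.5 points. The exact sign-flip p was 0.5 for each measure, two-sided, the smallest possible. Regions gained and lost and peak number were not run under every alternative of the other measures. Depth and fragment length limit the shortest peaks and gaps.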
